A study of Capra hircus with 6 samples.

Results

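The genes described here are 10 transcription factors that act in the commitment and differentiation of adipocytes outside the PPAR family, namely the CCAAT/enhancer binding proteins CEBPA, CEBPB and CEBPD, the Krüppel-like factors KLF2, KLF4, KLF5, KLF9 and KLF15, and the zinc finger or helix-loop-helix factors EBF1 and ZNF423. They were chosen by name from the deposited expression table of 27271 genes. The name column held 9 of them under their symbol, and EBF1 was found by its full description. They were measured in goat intramuscular preadipocytes, primary fat precursor cells isolated from the longissimus dorsi of Jianzhou goats that were 3 days old. The cells were transfected with a control siRNA (the NC groups, 3 libraries) or an siRNA directed against LIPG, the endothelial lipase (the Si-LIPG groups, 3 libraries). The labels give the NC groups as WT and the Si-LIPG groups as LIPG Knock down, both under adipose differentiation, and both were kept in medium with 50 μmol/L oleic acid and taken after 48 h. Of the 10 factors, 9 had at least 1 read in some library and 4 (CEBPB, CEBPD, KLF4 and KLF5) had enough reads to be compared between the groups.

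The differentiation of preadipocytes runs as a cascade of transcription factors. CEBPB and CEBPD are induced early by adipogenic hormones and switch on CEBPA and the nuclear receptor PPARγ, which then keep each other active and turn on the genes of the mature fat cell. The Krüppel-like factors bind GC-rich and CACCC sequences through 3 zinc fingers at their C-terminal end. KLF4 and KLF5 act early, KLF9 and KLF15 act later in the cascade, and KLF2 is known as a repressor of PPARγ that is high in preadipocytes. ZNF423 and EBF1 act upstream, ZNF423 in the commitment of precursors to the fat lineage and EBF1 in the activation of CEBPA and PPARγ.

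Poly(A) RNA was used for the 6 libraries, and their protocol keeps the strand of the transcript. They held 36451898 to 52638817 reads each, of which 524776 to 1051230 were counted on genes. Most reads (91.6% to 93.7% per library) were listed as falling on no gene. The share of reads on genes averaged 1.31% ± 0.279 (SD, n = 3) for NC, against 2.44% ± 0.566 (SD, n = 3) for Si-LIPG. NC 1 stood apart from the other libraries, with reads on 8927 genes against 10422 to 12344 in the others and with a normalization factor of 0.601 against 0.927 to 1.37. LIPG itself was counted 0, 2 and 0 times in NC 1, 2 and 3 and 0, 2 and 2 times in Si-LIPG 1, 2 and 3, which is too few to check the labels. The mitochondrial gene ND6, which is transcribed from the strand opposite to the other mitochondrial protein genes, had between 14.8 and 44.3 times the FPKM of its neighbour ND5. The strand setting of the counting is not given in the sources used here. If the counting took the strand that the transcript does not come from, the counts would not be reads of the named genes' own transcripts. This was not tested, and it bears on every level, order and 0 given below, which describe the deposited counts.

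The counts of the 10 factors were low. Together they had 845 reads over the 6 libraries, of which 406 were on CEBPD. NC 1, 2 and 3 had 104, 95 and 119 of these reads, and Si-LIPG 1, 2 and 3 had 143, 198 and 186. As CPM (counts scaled to 1e6 reads) over the reads on genes the sum was 158 to 198 in the NC groups and 165 to 202 in the Si-LIPG groups, which overlapped. Scaled to all reads in the files it was 1.98 to 2.58 and 2.98 to 5.30, so that the Si-LIPG set lay above the NC set on that scale, as the share of reads on genes did. Each statement on direction below is therefore given with its scale. Because these are bulk libraries, fewer cells that express a gene and less RNA per cell cannot be told apart.

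Levels were compared between genes as FPKM, in which counts are corrected for the length of the gene and for the total of a library. CEBPD had the highest FPKM, 115 ± 31.8 (SD over the 6 libraries), and lay at percentile 95.8 of the 14848 genes with a read. CEBPB followed with 29.2 ± 12.4 (SD, 6 libraries), at percentile 84.6. CEBPD was above CEBPB in 6 of 6 libraries, and the ranges of both genes did not overlap (83.9 to 168 against 16.2 to 47.4 FPKM). CEBPB was in turn above KLF9, the next in the order, in 6 of 6 libraries, although the ranges overlapped because KLF9 reached 25.9 FPKM in Si-LIPG 3. The means of KLF9, CEBPA, KLF4, EBF1, KLF5, KLF2 and ZNF423 were 5.97, 4.12, 3.998, 3.51, 2.47, 0.944 and 0.707 FPKM. No neighbours within this stretch of the order differed by more than 1 SD of their difference. The order depends on the gene lengths behind the FPKM values. These were 735 to 1062 nt for KLF9, CEBPD, CEBPB and CEBPA, and 1506 nt for EBF1. For KLF2, ZNF423, KLF5 and KLF4 they were 5098 to 6230 nt. KLF4 thus lay far below CEBPB with nearly as many reads (123 against 128). Its mean was also below that of KLF9 with its 25 reads, although KLF9 was at 0 in NC 1, NC 3 and Si-LIPG 2. CEBPA, above KLF4 by the mean, was above it in 1 of 6 libraries. KLF15, the last, had no read in any library.

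**Figure D1:**
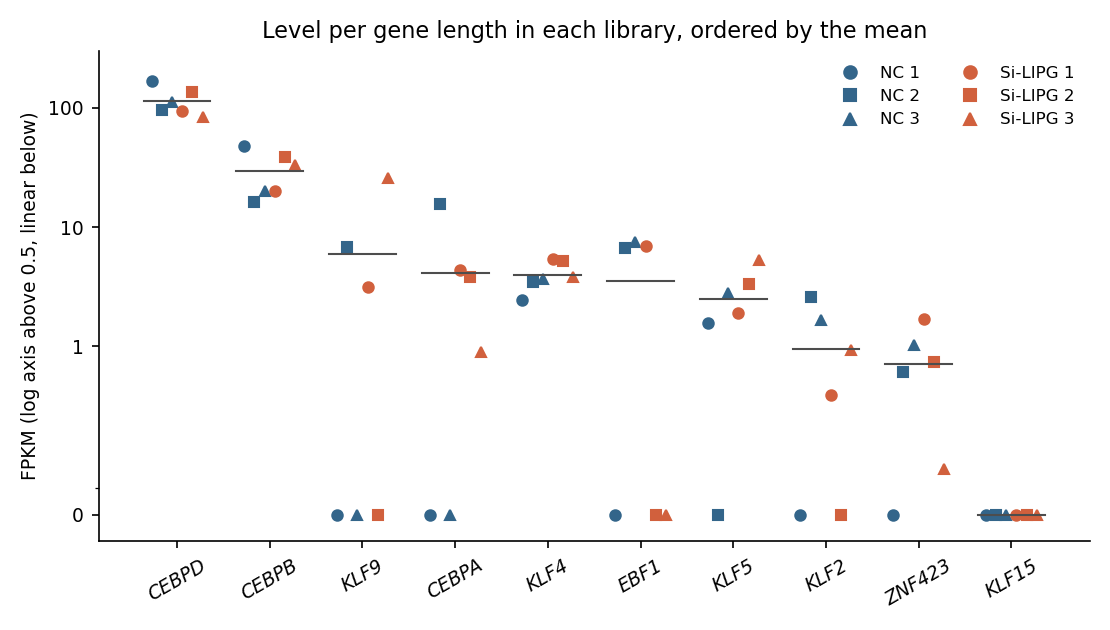
FPKM of each of the 10 factors (vertical axis, logarithmic above 0.5 and linear below) in the 3 NC (blue) and the 3 Si-LIPG libraries (orange), ordered by the mean of the 6 libraries (grey line). CEBPD lies between 83.9 and 168 FPKM, CEBPB between 16.2 and 47.4 FPKM, and 7 of the other 8 genes fall to 0 in at least 1 library, KLF15 in all 6.

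CEBPD (ENSCHIG00000010420), which starts the cascade together with CEBPB, was counted 68, 44 and 60 times in NC 1, 2 and 3 and 63, 103 and 68 times in Si-LIPG 1, 2 and 3. After TMM normalization, which aligns the libraries on the assumption that most genes do not change, its CPM was 220, 79.3 and 94.6 in the NC set and 71.1, 83.9 and 49.7 in the Si-LIPG set. NC 1 was far above all others, and NC 2 lay below Si-LIPG 2, so that the groups overlapped. The means were 131 ± 77.5 (SD, n = 3) and 68.2 ± 17.3 (SD, n = 3). The log2 fold change of Si-LIPG over NC was -0.92 (standard error 0.42, 95% interval -1.81 to -0.02), with an unadjusted p of 0.0454 and an adjusted p = 0.229 from the edgeR fit. Without NC 1 it was -0.37 (adjusted p = 0.661 from edgeR). As CPM over all reads, CEBPD had 1.29, 1.03 and 1.30 in the NC set and 1.31, 2.76 and 1.87 in the Si-LIPG set. The Si-LIPG set lay above the NC set on that scale, although Si-LIPG 1 was next to NC 3, and the log2 fold change was 0.71 (adjusted p = 0.251 from edgeR).

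The gene SPIDR, which takes part in DNA repair, lies within 1 kb of CEBPD on the goat assembly ARS1.2 as annotated by RefSeq, the only gene found that close to any of the 10 factors. It was counted 3195, 2974 and 3449 times in NC 1, 2 and 3 and 3265, 2539 and 2428 times in Si-LIPG 1, 2 and 3. Its FPKM was 3.70 to 10.2 times that of CEBPD in the same library. After TMM normalization SPIDR fell in the Si-LIPG groups, by a log2 fold change of -1.49 with a standard error of 0.41 (adjusted p = 0.0450 from edgeR). The adjusted p of SPIDR ranged from 0.0104 to 0.295 when 1 library was left out, and over all reads its log2 fold change was -0.02 (adjusted p = 0.924 from edgeR). The strands of both genes are not given in the annotation table used here. Whether reads counted on SPIDR came from CEBPD transcripts, which would change both the level and the direction of CEBPD, was not tested.

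CEBPB (ENSCHIG00000026165), the partner of CEBPD in the early phase, was counted 23, 9 and 13 times in the NC set and 16, 35 and 32 times in the Si-LIPG set. Its CPM after TMM was 74.6, 16.2 and 20.5 in the NC set and 18.1, 28.5 and 23.4 in the Si-LIPG set. NC 1 was again the highest, while NC 2 and NC 3 lay within or below the range of the Si-LIPG set. The means of 37.1 ± 32.5 (SD, n = 3) and 23.3 ± 5.23 (SD, n = 3) differed by less than the spread between replicates, and the log2 fold change was -0.58 (95% interval -1.92 to 0.76, adjusted p = 0.670 from edgeR). Without NC 1 the sign turned, to 0.32 (adjusted p = 0.846 from edgeR).

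CEBPA (ENSCHIG00000011587), which maintains the differentiated state, had 0, 10 and 0 reads in the NC set and 4, 4 and 1 reads in the Si-LIPG set. It was the only C/EBP factor of the 3 that was not found in every library, and 52.6% of its reads came from NC 2. Its FPKM was below that of CEBPB in 6 of 6 libraries, with 15.6 against 16.2 in NC 2 as the closest pair. The reads were too few for the main test.

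**Figure D2:**
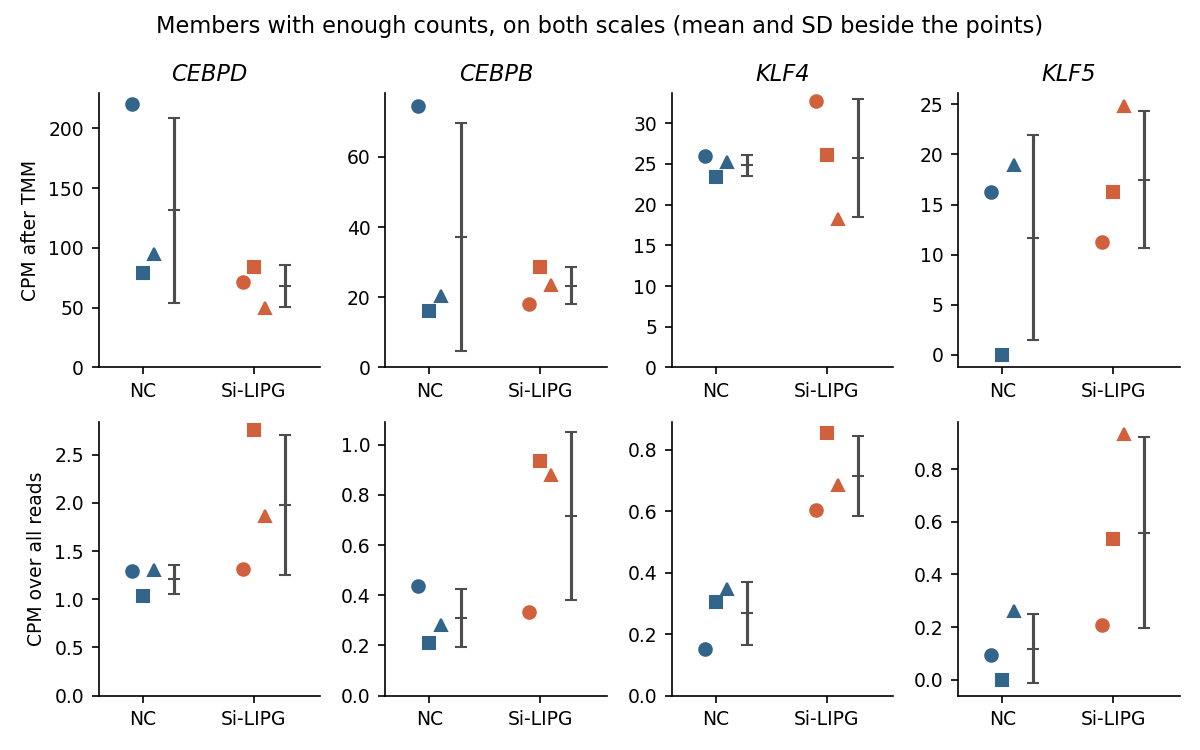
CPM of CEBPD, CEBPB, KLF4 and KLF5 in each library after TMM normalization (upper row) and over all reads in the files (lower row), with the mean and SD of the 3 libraries of each group beside the points. NC 1 (blue circle) is the highest library for CEBPD and CEBPB in the upper row, at 220 and 74.6 CPM, and for KLF4 the groups overlap in the upper row and are apart in the lower row.

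KLF4 (ENSCHIG00000017196), an early activator of CEBPB, was counted in every library, with 8, 13 and 16 reads in the NC set and 29, 32 and 25 in the Si-LIPG set. After TMM these were 25.9, 23.4 and 25.2 CPM in the NC set and 32.7, 26.1 and 18.3 CPM in the Si-LIPG set. The NC set fell inside the range of the Si-LIPG set. The means were 24.9 ± 1.30 (SD, n = 3) and 25.7 ± 7.24 (SD, n = 3), with a log2 fold change of 0.04 and a 95% interval from -1.14 to 1.22 (adjusted p = 0.977 from edgeR). The interval includes changes of over 2-fold in both directions. As CPM over all reads, KLF4 had 0.152, 0.305 and 0.347 in the NC set against 0.604, 0.856 and 0.686 in the Si-LIPG set. The groups did not overlap there, and the log2 fold change of 1.41 had an adjusted p = 0.124 from edgeR.

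KLF5 (ENSCHIG00000012685), which is induced by CEBPB and CEBPD and acts on the PPARγ gene, had 5, 0 and 12 reads in the NC set and 10, 20 and 34 reads in the Si-LIPG set. Its CPM after TMM was 16.2, 0 and 18.9 in the NC set and 11.3, 16.3 and 24.8 in the Si-LIPG set, so that the groups overlapped. The log2 fold change was 0.61 with a 95% interval from -1.37 to 2.59 (adjusted p = 0.776 from edgeR). NC 2, which had no read, decided this value, since without it the log2 fold change was -0.0088. It was 1.35 without NC 3 and 0.28 without Si-LIPG 3.

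The other Krüppel-like factors were near or at 0. KLF9 (ENSCHIG00000008018), a later activator of the cascade, had 0, 3 and 0 reads in the NC set and 2, 0 and 20 in the Si-LIPG set. Of its 25 reads, 80.0% were in Si-LIPG 3, and Si-LIPG 1 and 2 did not exceed NC 2. KLF2 (ENSCHIG00000008795), the preadipocyte repressor, had 0, 8 and 6 reads in the NC set and 2, 0 and 5 in the Si-LIPG set, which overlapped. KLF15 (ENSCHIG00000022291), which is induced late in adipogenesis and raises the glucose transporter GLUT4, had 0 reads in all 6 libraries. A count of 0 allows up to 3 reads, or 2.85 to 5.72 CPM over the reads on genes of a library. These limits cover counting error only.

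The upstream factors were as sparse. EBF1 (ENSCHIG00000023531) had 0, 6 and 8 reads in NC 1, 2 and 3 and 9, 0 and 0 in Si-LIPG 1, 2 and 3, so that each group held both libraries with reads and libraries without. ZNF423 (ENSCHIG00000027139) had 0, 2 and 4 reads in the NC set and 8, 4 and 1 in the Si-LIPG set. Its mean of 0.707 FPKM was the lowest of the 9 factors with a read. When edgeR was run on every gene with a read, the 5 sparse factors CEBPA, KLF2, KLF9, EBF1 and ZNF423 had unadjusted p values from 0.210 for KLF2 to 0.866 for ZNF423, and 95% intervals of the log2 fold change that were between 5.66 and 6.71 wide.

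Among the 4 factors with enough reads, 0 passed an adjusted p of 0.05 in edgeR, against 6.51% of the 6574 genes tested. The criterion of the study, a p under 0.05 before adjustment together with a change of over 1.5-fold, was met by 1 of the 4, CEBPD with a lower level, against 20.7% of all genes tested (12.9% lower). With DESeq2, 0 of them met either criterion, and the unadjusted p of CEBPD was 0.0520. After TMM, 0 of the 4 had groups that did not overlap, against 28.7% of all genes tested. As CPM over all reads it was 2 of the 4, CEBPD and KLF4, both higher, against 53% of all genes tested (51.9% higher). The median log2 fold change of the 4 was -0.27 after TMM, where that of all genes tested was 0.16.

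The fold changes of CEBPD and CEBPB changed sign with the scaling, while those of KLF4 and KLF5 were above 0 under each scaling. The log2 fold change of CEBPD was -0.92 after TMM, -0.22 with library sizes alone and 0.71 when scaled to all reads. CEBPB went from -0.58 to 0.17 and 1.19, KLF4 from 0.04 to 0.60 and 1.41, and KLF5 from 0.61 to 1.27 and 2.20. The median of all genes tested moved in the same steps, from 0.16 to 0.74 and 1.58. Relative to this median CEBPD lay at -1.08 after TMM, at -0.96 with library sizes alone and at -0.88 over all reads. CEBPB lay below the median under each of these scalings by a smaller amount (-0.74, -0.56 and -0.40), KLF4 was next to it (-0.12, -0.13 and -0.17), and KLF5 lay above it by 0.45, 0.53 and 0.61. None of the 4 factors had an adjusted p under 0.05 under any of these scalings, and the lowest was 0.124. The scalings use the same counts, so that the positions relative to the median are not independent of each other. They also depend on NC 1. Without it, CEBPB lay at 0.32 and CEBPD at -0.37 after TMM, where the median of all genes tested was 0.12.

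**Figure D3:**
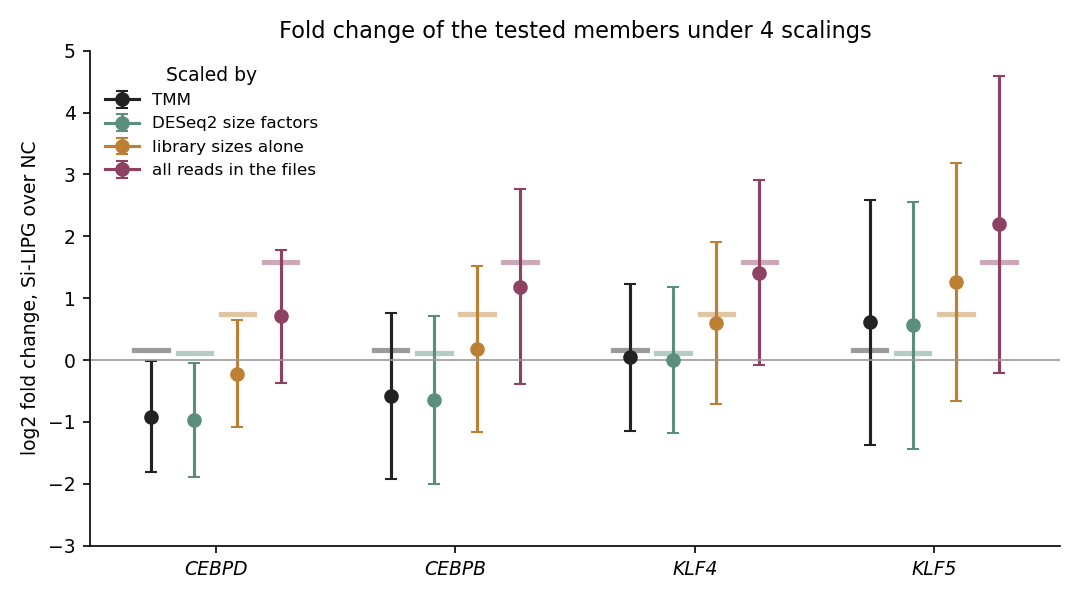
Log2 fold change of Si-LIPG over NC with its 95% interval for the 4 tested factors under 4 scalings, each with a pale bar at the median of all 6574 genes tested under the same scaling. CEBPD lies below the median under every scaling, KLF4 close to it, and all values move upwards from TMM to all reads, CEBPD from -0.92 to 0.71. The scalings use the same counts, so that the positions relative to the median are not independent of each other.

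Ratios of 2 factors within a library do not depend on how libraries are scaled, and were formed for the 3 factors counted in every library, after the values had been seen. The FPKM of CEBPD was 68.7, 27.3 and 30.3 times that of KLF4 in NC 1, 2 and 3 and 17.6, 26.0 and 22.0 times in Si-LIPG 1, 2 and 3. Every Si-LIPG library had a lower ratio than every NC library, with a mean difference of -0.83 on the log2 scale (exact permutation, two-sided, p = 0.1 and adjusted p = 0.3 over 3 ratios, where no p below 0.1 can be reached). NC 1 was far above all others, so that the mean difference leans on it, and NC 2 and Si-LIPG 2 were close, at 27.3 and 26.0. How many ratios of other genes keep the groups apart in this way was not counted. The ratio of CEBPB to CEBPD was 0.282, 0.171 and 0.181 in the NC set and 0.212, 0.284 and 0.393 in the Si-LIPG set, which overlapped (difference 0.48 on the log2 scale, exact permutation p = 0.2, adjusted p = 0.3). For CEBPB to KLF4 the groups overlapped as well (difference -0.36 on the log2 scale, exact permutation p = 0.8, adjusted p = 0.8).

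**Figure D4:**
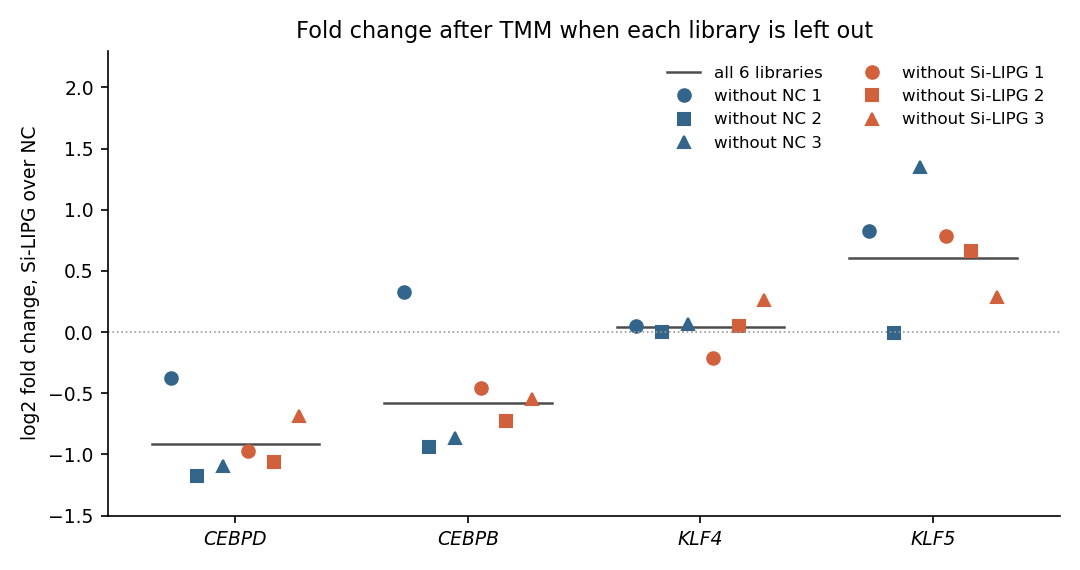
Log2 fold change of Si-LIPG over NC after TMM for the 4 tested factors in all 6 libraries (grey line) and when each library is left out (points, blue for an NC and orange for a Si-LIPG library). Leaving out NC 1 moves CEBPD from -0.92 to -0.37 and CEBPB from -0.58 to 0.32, and leaving out NC 2 moves KLF5 from 0.61 to -0.0088.

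Relatives of these factors were examined next. Of 20 other genes of the C/EBP, KLF, EBF and ZNF423 families, 16 had a read and 8 were tested. After TMM, 0 rose and 0 fell at an adjusted p under 0.05 or at the criterion of the study. Fold changes in this paragraph are after TMM unless stated. The median log2 fold change of the 8 was 0.19, next to 0.16 for all genes tested. Over all reads, 8 of the 8 were above 0, with a median of 1.57 next to 1.58 for all genes tested. The best counted were KLF10, a factor induced by TGF-beta, with 14, 44 and 39 reads in the NC set and 61, 88 and 69 in the Si-LIPG set, and CEBPZ, with 38, 20 and 30 reads and 77, 59 and 79 reads. Their log2 fold changes were 0.02 and -0.05 (adjusted p = 0.986 and 0.969 from edgeR). DDIT3, the C/EBP relative CHOP that binds C/EBP factors and blocks their action on DNA, had 2, 24 and 29 reads in the NC set and 53, 42 and 55 in the Si-LIPG set, with a log2 fold change of 0.41 (adjusted p = 0.740 from edgeR). EBF3 had the largest change of these 8 genes, with 5, 4 and 5 reads against 18, 24 and 46. Its log2 fold change was 1.30 (95% interval -0.22 to 2.82, adjusted p = 0.331 from edgeR). Over all reads it was 2.90 (adjusted p = 0.0472 from edgeR), where 750 of all 6574 genes tested had an adjusted p under 0.05. DDIT3 and EBF3 were singled out after their values were seen.

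Of 22 other regulators of adipogenesis, 20 were found by name, 18 had a read and 14 were tested. After TMM none rose or fell at an adjusted p under 0.05 with edgeR, and 0 met the criterion of the study. Fold changes in this paragraph are after TMM unless stated. The median log2 fold change of the 14 was 0.16, the same as that of all genes tested to this precision. Over all reads, 14 of the 14 were above 0, with a median of 1.68 against 1.58 for all genes tested. ATF4, the stress-response factor that pairs with C/EBP proteins, had 36, 195 and 242 reads in the NC set and 305, 560 and 539 in the Si-LIPG set, with a log2 fold change of 0.48 (adjusted p = 0.543 from edgeR). NC 1 was far below the others for ATF4. CTNNB1, the β-catenin through which Wnt signals hold back adipogenesis, had 89, 129 and 86 reads against 196, 321 and 342. Its log2 fold change was 0.17 (adjusted p = 0.832 from edgeR). Over all reads it was 1.74 (adjusted p = 0.0462 from edgeR), where 750 of all 6574 genes tested had an adjusted p under 0.05.

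Few of the adipocyte genes that C/EBP factors bind or induce had enough reads to be tested. Of 16 such genes, 15 were found by name, 11 had a read, 4 (LPL, CD36, SLC2A4 and PCK1) were counted 0 times in all libraries, and 2 were tested. The study measured LPL and CD36 by RT-qPCR and reports LPL as lower and CD36 as not obviously changed after LIPG knockdown. The 0 counts of these genes therefore do not show that their transcripts were absent. The markers of the mature fat cell ADIPOQ, LEP, FABP4 and PLIN1 had at most 8 reads in a library. PNPLA2, the adipose triglyceride lipase that starts lipolysis, was counted 94, 109 and 157 times in the NC set and 122, 112 and 107 times in the Si-LIPG set. It fell after TMM normalization, by a log2 fold change of -1.28 with a standard error of 0.34 (adjusted p = 0.0400 from edgeR). The groups did not overlap in FPKM, with 25.7 to 32.1 in the NC set and 14.6 to 20.3 in the Si-LIPG set. The share of all genes with this pattern in FPKM was not counted. In counts and in CPM over all reads the groups overlapped. With library sizes alone the log2 fold change of PNPLA2 was -0.69 (adjusted p = 0.192 from edgeR). Its adjusted p after TMM was 0.0129 to 0.272 when 1 library was left out, and over all reads its log2 fold change was 0.13 (adjusted p = 0.812 from edgeR). The study reports by RT-qPCR that this gene, there named ATGL, rose significantly after LIPG knockdown. That is opposite to the direction after TMM, and the cause of the difference was not tested. GPD1, which makes the glycerol phosphate for triglycerides, had 7, 9 and 15 reads against 19, 5 and 6. Its log2 fold change after TMM was -1.10 (adjusted p = 0.515 from edgeR).

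**Figure D5:**
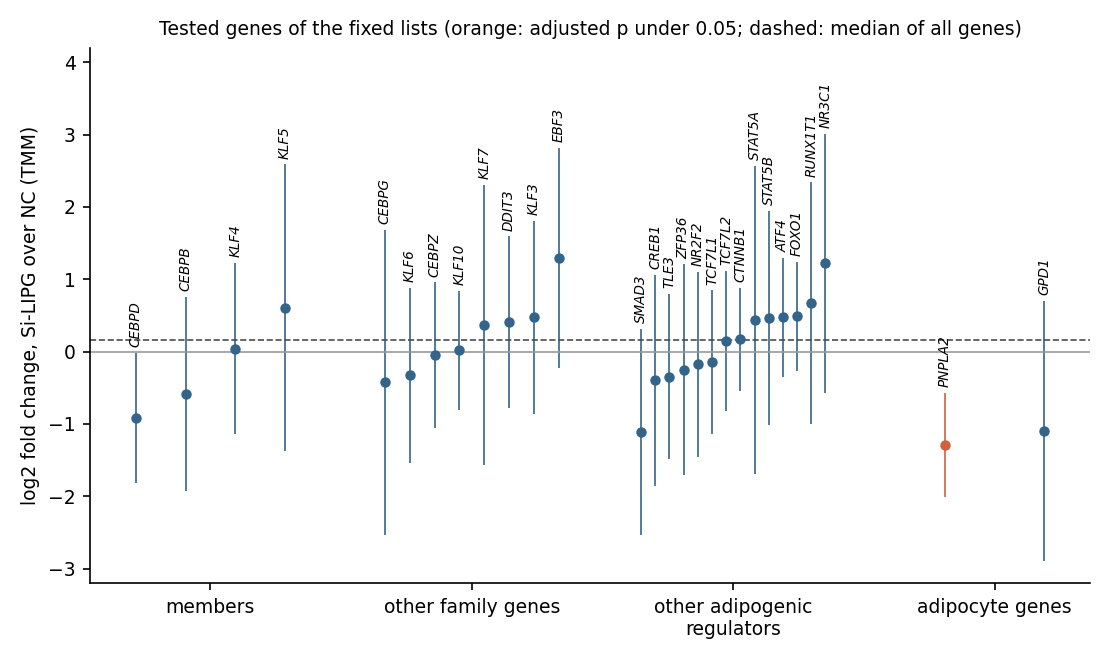
Log2 fold change of Si-LIPG over NC after TMM, with its 95% interval, for the tested genes of 4 lists. The dashed line is the median of all genes tested (0.16), and PNPLA2 (orange, -1.28) is the one gene with an adjusted p under 0.05.

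Of 10 preadipocyte and mesenchymal markers, 9 were found by name and 8 had reads, among them PDGFRA, PDGFRB, THY1 and COL1A1. DLK1, a defining marker of preadipocytes, had no read. Their sum, most of it from COL1A1, VIM and ITGB1, was 8752 to 17784 CPM over reads on genes in the NC groups and 24614 to 27076 CPM in the Si-LIPG groups. On that scale the median of all genes tested also lay at 0.74 (log2). After TMM the 8 markers had a median log2 fold change of 0.19, next to 0.16 for all genes tested, and 0 had an adjusted p under 0.05 from edgeR. ENG, the endoglin of mesenchymal cells, met the criterion of the study with 310, 282 and 342 reads against 376, 359 and 350 and a log2 fold change of -1.07 after TMM (adjusted p = 0.0844 from edgeR and 0.0246 from DESeq2), which turned to 0.44 over all reads (adjusted p = 0.245 from edgeR). Of 8 myogenic markers, 7 were found by name and all 7 had reads, with a sum of 276 to 387 CPM in the NC groups and 475 to 531 CPM in the Si-LIPG groups. After TMM the 3 tested markers had a median log2 fold change of 0.0088, below that of all genes tested, and 0 had an adjusted p under 0.05 from edgeR. The best counted were the muscle structural genes MYH3, with 66, 111 and 132 reads against 199, 177 and 250, and DES, with 72, 100 and 76 reads against 176, 196 and 238. Their log2 fold changes after TMM were -0.17 and 0.0088 (adjusted p = 0.809 and 0.992 from edgeR). MYOD1, a master factor of muscle cells, had 7, 10 and 14 reads against 28, 71 and 36, with a log2 fold change of 0.89 (adjusted p = 0.388 from edgeR). The markers named here were chosen after their values were seen. The endothelial markers CDH5, KDR and TEK and the leukocyte marker PTPRC had no read. PECAM1, also endothelial, had 4 reads in NC 2 and 6 in Si-LIPG 2, and VWF had 1 read in Si-LIPG 2. The leukocyte markers CD68, CD14 and CSF1R were counted in every library, with at most 14 reads in a library. The part of other cell types in the values of the 10 factors was not tested.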

How the data were processed

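RNA-seq counts and FPKM values of 3 NC and 3 Si-LIPG libraries were used, with groups and replicate numbers taken from the sample titles. Counts were deposited by the authors in a file for each library and were not normalized. They came with 5 rows for reads not counted on a gene (97.1% to 99.0% of the reads), which include unaligned reads. These rows were left out of library sizes, except in the scaling to all reads. The submitters' processing notes name fastp, HISAT2, SAMtools and HTSeq. Their versions, the genome build, the annotation and the strand setting are not given in the sources used here. The authors deposited FPKM values in 1 table. These equal the counts scaled by gene length and by the reads on genes, and were used for levels. Columns with comparisons of the authors were not among the files.

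Counts were fitted in R 4.3.3 with edgeR 4.0.16 (filterByExpr, 6574 genes, TMM, quasi-likelihood test, no covariate), and p values were adjusted by the Benjamini-Hochberg method over these genes. The study names DESeq2, and DESeq2 1.42.0 and limma 3.58.1 served for alternatives. The alternatives were other scalings, other filters on low counts, a replicate block, limma on log2(FPKM + 1) and log2(FPKM + 0.1), and leaving out each library. Intervals are 95% intervals of the edgeR fit. The procedures were tested on simulated data. The study calls its replicates biological, but neither the labels nor the methods say whether the libraries came from separate animals, so that p values measure the spread between these libraries, which may be technical in part. All pairs of libraries within a group differed beyond counting error (chi-square over its degrees of freedom 4.21 to 12.5). The 10 factors and the lists were chosen with earlier results of these data known. All 10 factors were named. From each of the 3 lists of related genes, genes with an adjusted p under 0.05 (at most 4) were named, then the best counted tested genes until 2 were named, and genes at the unadjusted criterion up to 4. This rule did not cover the cell type markers. Sequences were not used here.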

Additional observations from a re-analysis of the deposited data

How the results depend on the processing

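Of the factors with an adjusted p, 0 were under 0.05 in each of the 15 alternatives. In 6 of these (both limma fits and without NC 1, NC 2, Si-LIPG 2 or Si-LIPG 3) 0 of all genes passed, so that no factor could, and in the other 9 it was 123 to 925 of all genes. With a minimum of 10 counts in each sample CEBPD alone was fitted, and DESeq2 gave KLF5 no adjusted p. The count of 1 factor that met the criterion of the study was 0 with library sizes alone, scaled to all reads, with DESeq2, without a filter, with a minimum of 10 counts in each sample and with limma on log2(FPKM + 1) or log2(FPKM + 0.1), and it ranged from 0 to 1 when a library was left out (0 without NC 1, Si-LIPG 1, Si-LIPG 2 or Si-LIPG 3). The genes that met it, 1361 of 6574 in the main comparison, were 1983 of 6574 with library sizes alone, 3032 of 6574 (2 of them lower) scaled to all reads, 1693 of 14848 with DESeq2, 2044 of 14848 without a filter, 1066 of 2757 with a minimum of 10 counts, and 1912 and 1671 of 6574 with limma. They were 1307 of 7744 without NC 1, 1444 of 7182 without Si-LIPG 1, 888 of 6709 without Si-LIPG 2 and 871 of 6654 without Si-LIPG 3. The log2 fold change of CEBPD turned to 0.71 when scaled to all reads. That of CEBPB turned to 0.17 with library sizes alone, 1.19 scaled to all reads, 0.23 and 0.24 with limma on log2(FPKM + 1) and log2(FPKM + 0.1), and 0.32 without NC 1. That of KLF4 was -0.21 without Si-LIPG 1, and that of KLF5 -0.0088 without NC 2. The cause was not tested. When each library was left out, CEBPD ranged from -1.17 to -0.37, CEBPB from -0.94 to 0.32, KLF4 from -0.21 to 0.26 and KLF5 from -0.0088 to 1.35. With a replicate block the log2 fold change of KLF4 was -0.0010, and 925 in place of 428 of all genes had an adjusted p under 0.05. The deviations of libraries with the same number had correlations of 0.210, 0.0639 and 0.105. For different numbers the correlations were -0.154 to 0.0910, so that the value for replicates 2 lay within that range and the others above it. These values do not settle whether libraries were paired, and the main fit used no block. No factor had more than 103 reads in a library, and libraries of a group differed beyond counting error. The shares of both in the width of the intervals were not tested.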

Other observations

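Some genes of the lists did not pass the filter on low counts and were counted mostly in the Si-LIPG set, and they were singled out after their values were seen. KLF12 had 2, 0 and 0 reads in the NC set and 8, 10 and 9 in the Si-LIPG set. EGR2, an early activator of adipogenesis also known as KROX20, had 0, 1 and 0 reads against 12, 7 and 6. SCD, the stearoyl-CoA desaturase, was not counted in the NC set and had 5, 2 and 13 reads in the Si-LIPG set, and PAX7, the marker of muscle satellite cells, had 0, 0 and 4 reads against 8, 12 and 22. When edgeR was run on every gene with a read, the unadjusted p was 0.0404 for SCD, 0.0732 for EGR2, 0.0916 for PAX7 and 0.169 for KLF12, and the adjusted p was 0.326, 0.421, 0.456 and 0.570. Other sparse genes leaned the other way, among them KLF2 and EBF1, with 14 reads each in the NC set against 7 and 9. LIPE, the hormone-sensitive lipase, had 5, 7 and 8 reads against 7, 2 and 4. The reads on genes were 524776 to 703680 in the NC set, on 8927 to 10603 genes. In the Si-LIPG set they were 864882 to 1051230, on 11545 to 12344 genes. The part of this difference in the counts of KLF12, EGR2, SCD and PAX7 was not tested, and the share of all sparse genes with their pattern was not counted.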
